A study of Mus musculus with 10 samples.

Results

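The genes described here are 8 transcription factors that take part in the choice between myeloid fates, *Spi1* (PU.1), *Ikzf1* (Ikaros), *Gfi1*, *Gfi1b*, *Klf4*, *Id2*, *Bcl6* and *Maf*. They were chosen by name and are 8 of the 24015 genes in the count table, with values in all 10 RNA-sequencing libraries. The cells are MAF9 cells, bone marrow cells of C57BL/6 mice turned leukemic by retroviral transduction of the fusion gene MLL-AF9, grown with interleukin-3. Cells were treated for 4 days with MM-401, which blocks the binding of MLL1 to WDR5, with EPZ5676, a DOT1L inhibitor, with MI-2-2, an inhibitor of MENIN, with iBET, a BET bromodomain inhibitor, or with the solvent DMSO, with 2 libraries each. Each inhibitor was used at its own growth-inhibiting dose, so doses were matched by effect on growth. The controls carry MLL-AF9 as well, so no group shows the cells without the fusion. The labels do not say whether the 2 libraries of a condition came from separate transductions or cultures. The paper describes duplicate biological samples, and the 2 DMSO libraries differ in sex-linked genes, as given below. The p-values measure the spread between the libraries of a condition.

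PU.1 drives both granulocyte and monocyte genes, and GFI1 is a zinc finger repressor that favours the granulocyte fate and holds down monocyte regulators. KLF4 and MAF act on the monocyte and macrophage side, BCL6 is a repressor used by several mature blood cells, and ID2 is a helix-loop-helix protein without a DNA-binding domain that sequesters E proteins. Acute leukemia with an MLL fusion is arrested at a progenitor stage.

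Libraries held 20394762 to 29473127 counted reads. Levels are given as CPM, reads scaled to the size of the library, after trimmed-mean (TMM) scaling, and differences as log2 fold changes with standard error (SE) from 1 edgeR quasi-likelihood fit over the 10 libraries, called at a Benjamini-Hochberg adjusted p under 0.05 across the 12971 genes that passed the filter on low counts. Of the 8 factors, 7 passed. *Gfi1b* did not, and *Maf* passed through the treated libraries, as it had 10 or more reads in 8 of the 10 and only 8 and 7 in DMSO. The second DMSO library stood apart. It had 3630 reads on 4 Y-linked genes, against 0 to 2 in each other library, and 97 *Xist* reads against 21802 to 72357, the pattern of male cells, where the other 9 libraries had that of female cells. Results against DMSO are therefore also given without it where this changes a call. Fits without the first DMSO library keep only this second library as control. There, an effect of an inhibitor and the difference between the cells cannot be told apart. *Ikzf1* was 1.64 times higher, *Klf4* 1.85 times higher and *Id2* 1.98 times lower in the second DMSO library than in the first. For the other factors that passed the filter, the DMSO libraries lay closer together.

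With the DOT1L and the MENIN inhibitor, most of the 8 factors rose. *Spi1*, *Klf4*, *Id2*, *Bcl6* and *Maf* rose with both inhibitors and *Ikzf1* rose with EPZ5676, while *Gfi1* showed no called change. With EPZ5676, 6 of the 7 factors tested were called higher and 0 lower, where 18.7% of all genes tested were called higher and 19.4% lower. With MI-2-2, 5 were called higher and 0 lower, against 20.2% and 21.2% of all genes. The median log2 fold change of the 7 factors was 2.69 with EPZ5676 and 3.06 with MI-2-2, and that of all genes tested was -0.058 and -0.054. For each of the 7 factors and both inhibitors, the 2 treated libraries lay on 1 side of both DMSO libraries, as was so for 64.7% of all genes with EPZ5676 and 67.9% with MI-2-2. The comparisons of the 4 inhibitors share the same DMSO libraries.

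**Figure D1:**
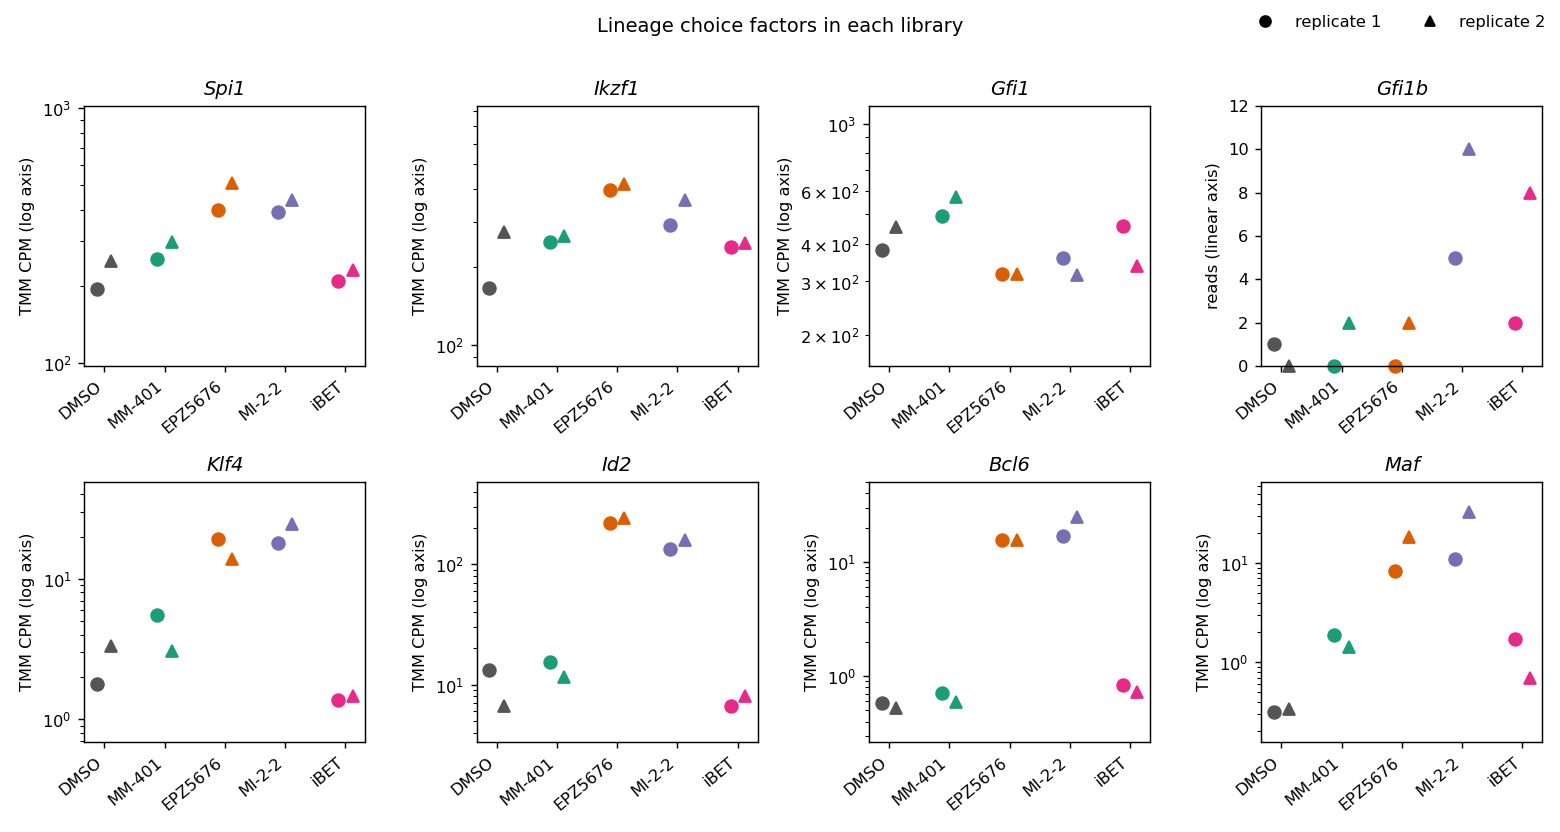
Level of each factor in each library, in TMM CPM on a log axis, or in reads on a linear axis for *Gfi1b*. Circles are replicate 1 and triangles replicate 2 of each condition, with DMSO on the left. *Id2*, *Bcl6*, *Klf4* and *Maf* are higher in all 4 EPZ5676 and MI-2-2 libraries than in the other 6, and *Gfi1* is lower there than in both DMSO libraries.

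*Spi1* encodes PU.1, the ETS factor that all myeloid cells need. Its level was 195 and 251 TMM CPM in DMSO, 256 and 298 with MM-401, 399 and 511 with EPZ5676, 390.0 and 437 with MI-2-2, and 209.8 and 231 with iBET. The EPZ5676 and MI-2-2 libraries lay above all others. The rise was 2.04-fold with EPZ5676 (log2 fold change 1.03 ± 0.18 SE, edgeR adjusted p = 0.00402) and 1.86-fold with MI-2-2 (0.89 ± 0.18, edgeR adjusted p = 0.00645). Fitted on the compared groups alone, neither was called (edgeR adjusted p = 0.0627 and 0.0637).

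*Ikzf1* encodes Ikaros, a zinc finger factor of lymphoid and myeloid progenitors. Its level was 167 and 274 TMM CPM in DMSO, 252 and 265 with MM-401, 397 and 419.9 with EPZ5676, 293 and 364 with MI-2-2, and 240.3 and 248 with iBET. EPZ5676 raised it 1.85-fold (log2 fold change 0.89 ± 0.22 SE, edgeR adjusted p = 0.0161), a call lost without the second EPZ5676 library (edgeR adjusted p = 0.0726) and in a fit of these 2 groups alone (0.111). The value for MI-2-2 was 0.58 ± 0.22 (edgeR adjusted p = 0.0688), and it passed with the replicate number as a block (0.59, edgeR adjusted p = 0.0252) and without the second DMSO library (1.01, edgeR adjusted p = 0.00254).

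*Gfi1* had the highest level per length of the 8 in DMSO. Its level was 381 and 455 TMM CPM in DMSO, 492 and 572 with MM-401, 318 and 317 with EPZ5676, 358 and 315 with MI-2-2, and 456 and 337 with iBET. The EPZ5676 and MI-2-2 libraries lay below both DMSO libraries, by -0.40 ± 0.18 on the log2 scale with EPZ5676 (edgeR adjusted p = 0.111) and -0.31 ± 0.18 with MI-2-2 (edgeR adjusted p = 0.187), and neither was called. With scaling by total counts, which moves the median log2 fold change of all genes from -0.058 to -0.226 for EPZ5676 and from -0.054 to -0.204 for MI-2-2, the EPZ5676 value was -0.56 and was called (edgeR adjusted p = 0.0336). An annotated transcript on the other strand, A430072P03Rik, covers 101 bases (3.17%) of the exons of *Gfi1*, and the sources used here do not say whether strand was used in counting.

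*Gfi1b* encodes the paralogue of GFI1 used in red cell and platelet precursors. It had 1 and 0 reads in DMSO, 0 and 2 with MM-401, 0 and 2 with EPZ5676, 5 and 10 with MI-2-2, and 2 and 8 with iBET. Summed over a condition and scaled by library size, reads were 13.8 times those in DMSO with MI-2-2 (15 reads against 1, exact 95% interval 2.13 to 583) and 9.54 times with iBET (10 reads against 1, interval 1.36 to 414). For MM-401 the ratio was 1.96 (0.102 to 116) and for EPZ5676 2.22 (0.116 to 131). These intervals cover counting error only. In a fit without the filter on low counts, *Gfi1b* was not called with MI-2-2 (edgeR adjusted p = 0.104) or iBET (0.265).

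*Klf4*, a zinc finger factor of monocyte differentiation, was at 1.79 and 3.31 TMM CPM in DMSO, 5.54 and 3.07 with MM-401, 19.1 and 13.8 with EPZ5676, 18.0 and 24.4 with MI-2-2, and 1.37 and 1.45 with iBET. It rose 6.47-fold with EPZ5676 (log2 fold change 2.69 ± 0.40 SE, edgeR adjusted p = 0.00225) and 8.36-fold with MI-2-2 (3.06 ± 0.41, edgeR adjusted p = 0.00138). The iBET libraries held the lowest values of all, and the first MM-401 library lay above both DMSO libraries while the second lay between them.

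*Maf* encodes c-MAF, a leucine zipper factor of macrophages and some T cells. Its level was 0.311 and 0.335 TMM CPM in DMSO, 1.90 and 1.43 with MM-401, 8.39 and 18.3 with EPZ5676, 11.1 and 32.8 with MI-2-2, and 1.72 and 0.689 with iBET. Its fold changes were the largest of the 7 factors with all libraries in the fit, 40.7-fold with EPZ5676 (log2 fold change 5.35 ± 0.77 SE, edgeR adjusted p = 0.00197) and 67.1-fold with MI-2-2 (6.07 ± 0.79, edgeR adjusted p = 0.00124). They rest on 8 and 7 reads in DMSO, and the 2 libraries of each of these inhibitors differed more from each other than for the other 6 factors that passed the filter. Without the second EPZ5676 library the log2 fold change was 4.68 (25.6-fold), below that of *Bcl6* in the same fit (4.81), and without the second MI-2-2 library it was 5.09 (34.0-fold), above that of *Bcl6* (4.93). The antisense transcript Gm15655 overlaps 440 bases (5.34%) of its exons.

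*Id2*, the E protein antagonist, was at 13.2 and 6.66 TMM CPM in DMSO, 15.6 and 11.7 with MM-401, 221 and 241 with EPZ5676, 133 and 160.4 with MI-2-2, and 6.67 and 8.03 with iBET. All 4 EPZ5676 and MI-2-2 libraries were at or above 133, and no other library passed 15.6. The rise was 23.1-fold with EPZ5676 (log2 fold change 4.53 ± 0.33 SE, edgeR adjusted p = 0.000319) and 14.7-fold with MI-2-2 (3.88 ± 0.32, edgeR adjusted p = 0.000393). Without the second DMSO library the log2 fold changes were 4.16 and 3.51, and without the first 5.11 and 4.46.

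*Bcl6*, a zinc finger repressor, was at 0.584 and 0.527 TMM CPM in DMSO, 0.718 and 0.588 with MM-401, 15.8 and 15.8 with EPZ5676, 17.1 and 25.1 with MI-2-2, and 0.839 and 0.727 with iBET. It thus went from 15 and 11 reads in DMSO to 325 and 335 with EPZ5676 and 394 and 687 with MI-2-2. The rise was 28.0-fold with EPZ5676 (log2 fold change 4.81 ± 0.30 SE, edgeR adjusted p = 0.000212) and 37.5-fold with MI-2-2 (5.23 ± 0.30, edgeR adjusted p = 0.000179). The calls for *Bcl6*, *Id2*, *Klf4* and *Maf* with these inhibitors held in each of the 11 alternative analyses, which include leaving out each library concerned.

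Since *Bcl6* and *Id2* had the smallest adjusted p-values of the 7 factors tested with both inhibitors, their RefSeq promoters (GRCm38.p6, the 250 bases before the annotated start, on the minus strand in each case) are shown, read 5' to 3'. Capitals mark 3 of the motifs searched, found on either strand, GAGGAA of PU.1, CCACCC of KLF factors and TTCNNNGAA of BCL6 and STAT factors. The upstream *Bcl6* promoter lies at chr16:23988853-23989102, the second *Bcl6* promoter at chr16:23981284-23981533 and the *Id2* promoter at chr12:25096093-25096342.
Bcl6 upstream promoter: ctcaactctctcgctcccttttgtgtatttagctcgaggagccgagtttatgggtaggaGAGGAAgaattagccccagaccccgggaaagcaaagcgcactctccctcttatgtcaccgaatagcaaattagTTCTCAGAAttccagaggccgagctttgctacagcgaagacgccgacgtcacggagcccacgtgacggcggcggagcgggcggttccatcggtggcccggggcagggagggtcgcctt
Bcl6 second promoter: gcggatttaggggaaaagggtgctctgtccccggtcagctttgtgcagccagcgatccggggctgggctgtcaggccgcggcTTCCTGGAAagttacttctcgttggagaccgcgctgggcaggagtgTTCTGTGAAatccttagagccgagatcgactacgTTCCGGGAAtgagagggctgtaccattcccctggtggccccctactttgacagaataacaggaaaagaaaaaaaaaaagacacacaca
Id2 promoter: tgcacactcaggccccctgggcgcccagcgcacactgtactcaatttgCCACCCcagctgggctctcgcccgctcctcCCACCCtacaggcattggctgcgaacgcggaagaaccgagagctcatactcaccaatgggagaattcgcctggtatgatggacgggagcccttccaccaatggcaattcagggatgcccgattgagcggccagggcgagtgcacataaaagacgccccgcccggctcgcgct

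The upstream *Bcl6* window holds 1 GAGGAA, 191 bases before the start, and 1 TTCNNNGAA at 118 bases. The second *Bcl6* window holds 3 TTCNNNGAA, at 168, 122 and 88 bases, the letters that the BCL6 protein itself and STAT factors can bind. The *Id2* window holds 2 CCACCC, at 202 and 172 bases. Other motifs were searched but not marked. AAATCA of GFI1, TGGGAA of Ikaros and TGCTGA of MAF had no site in these windows. The E-box CANNTG was found at 60 bases in the upstream *Bcl6* window and at 196 bases in the *Id2* window, and 66.2% of all promoters hold it. Of the 32851 RefSeq promoters of this length, 23.3% hold GAGGAA, 28.1% CCACCC and 7.02% TTCNNNGAA. A match gives letters only, not binding, and the counts do not tell which start was used. Of the 8 factors, 6 had a promoter in the table, and *Spi1* and *Maf* had none.

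**Figure D2:**
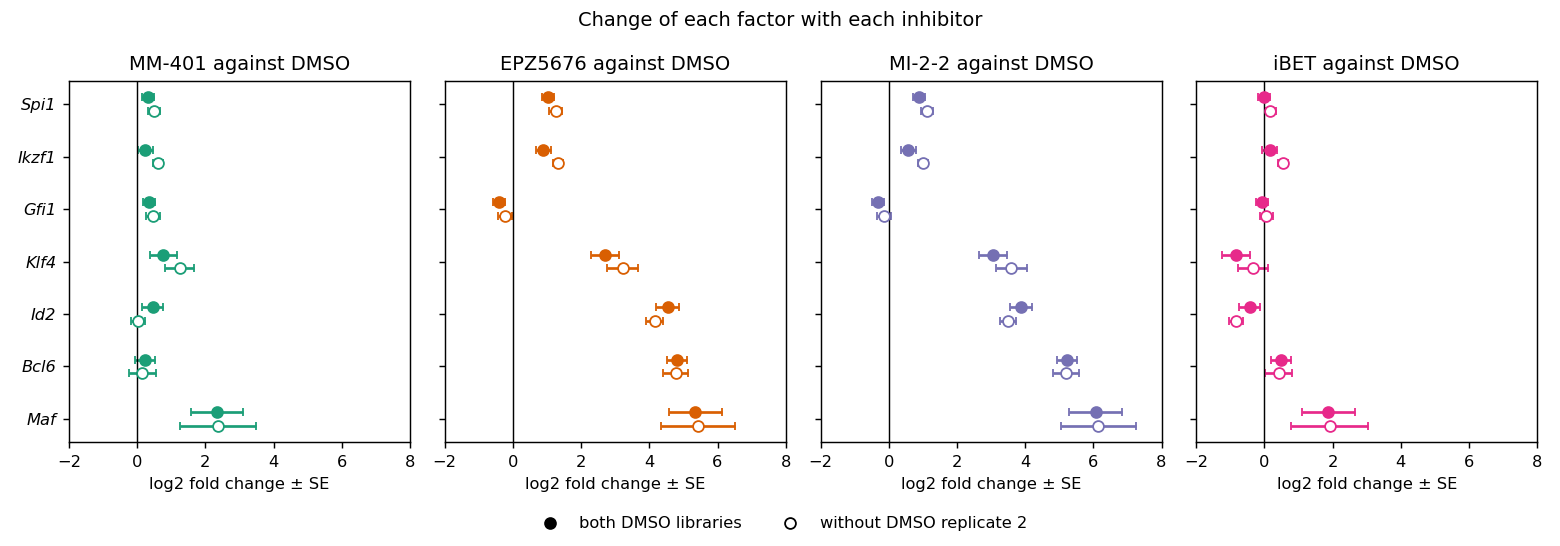
Log2 fold change against DMSO (horizontal axis) with its SE for the 7 factors tested, for each inhibitor. Filled points use both DMSO libraries and open points leave out the second. With EPZ5676 and MI-2-2, *Klf4*, *Id2*, *Bcl6* and *Maf* lie above 2 with and without that library, while for MM-401 and iBET most points lie near 0.

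None of the 7 factors was called with the BET inhibitor, where 13.9% of all genes tested were called, 6.38% higher and 7.54% lower. *Maf* was higher in both iBET libraries, with a log2 fold change of 1.87 ± 0.77 SE (edgeR adjusted p = 0.139), and *Bcl6* was at 0.49 ± 0.30 (edgeR adjusted p = 0.352). *Klf4* was lower in both, at -0.84 ± 0.41 (edgeR adjusted p = 0.200), and *Id2* was at -0.44 ± 0.30 (edgeR adjusted p = 0.351). *Spi1* (-0.015 ± 0.18), *Gfi1* (-0.076 ± 0.18) and *Ikzf1* (0.15 ± 0.22) had values within 1 SE of 0. The libraries did not overlap those of DMSO for 3 of the 7 factors, against 54.6% of all genes. Without the second DMSO library 22.2% of all genes were called and 2 of the 7 factors, *Ikzf1* higher (0.55, edgeR adjusted p = 0.0356) and *Id2* lower (-0.85, edgeR adjusted p = 0.0274), and without the first both values changed sign (-0.17 and 0.14).

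With MM-401, too, 0 of the 7 factors were called, but here 0% of all genes tested passed in edgeR, with 1450 at an unadjusted p under 0.05 and 297 called by DESeq2. *Maf* had the highest value, 2.35 ± 0.76 on the log2 scale (5.09-fold, edgeR adjusted p = 0.336), and both MM-401 libraries were above both DMSO libraries. *Spi1* (0.32 ± 0.18), *Gfi1* (0.35 ± 0.18) and *Bcl6* (0.23 ± 0.31) also did not overlap, 4 of 7 factors against 37.3% of all genes, while *Klf4* (0.76 ± 0.39), *Id2* (0.45 ± 0.30) and *Ikzf1* (0.23 ± 0.22) had an MM-401 library within the DMSO range. Without the first DMSO library, which leaves only the one with the pattern of male cells as control, *Id2* went to 1.03 and *Ikzf1* to -0.084.

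Inhibitors were also compared with each other, which leaves the DMSO libraries out of the difference. EPZ5676 and MI-2-2 together stood above MM-401 for 5 factors and below it for 1, where 20.5% of all genes were called higher and 21.6% lower. *Gfi1* was the lower one, by 1.63-fold (log2 fold change -0.70 ± 0.15 SE, edgeR adjusted p = 0.00766), with all 4 libraries under both of MM-401. *Spi1* was 1.57-fold higher (0.65 ± 0.16, edgeR adjusted p = 0.0137), *Klf4* 4.34-fold, *Maf* 10.3-fold, *Id2* 13.5-fold and *Bcl6* 27.7-fold. *Ikzf1* did not pass (0.50 ± 0.19, edgeR adjusted p = 0.0701), but passed with the replicate number as a block (edgeR adjusted p = 0.0296). Without the second MM-401 library *Gfi1* (-0.59, edgeR adjusted p = 0.0828), *Maf* (3.17, 0.0509) and *Spi1* (0.76, 0.0558) were no longer called, which leaves 3 calls, and *Spi1* was not called without the first (0.54, edgeR adjusted p = 0.122) either.

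Against iBET, EPZ5676 and MI-2-2 together were higher for 6 factors and lower for 0, with 21.9% of all genes called higher and 23.8% lower. *Spi1* was 1.97-fold higher, *Klf4* 13.2-fold, *Maf* 14.3-fold, *Bcl6* 23.2-fold and *Id2* 25.0-fold. Without the first iBET library the value for *Maf* was 24.7-fold, and without the second 9.92-fold. *Ikzf1* was higher by 0.59 ± 0.20 on the log2 scale (edgeR adjusted p = 0.0401), a call lost with total-count scaling and without any of 5 of the 6 libraries. For *Gfi1* the value was -0.28 ± 0.15 (edgeR adjusted p = 0.164).

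The DOT1L and MENIN inhibitors were then set against each other, and 0 of the 7 factors were called, as were 0.0154% of all genes (2 of 12971, with 937 at an unadjusted p under 0.05 in edgeR and 156 called by DESeq2). *Id2* was 1.57-fold higher with EPZ5676 (0.65 ± 0.28 on the log2 scale, edgeR adjusted p = 0.685), and both of its libraries were above both of MI-2-2. *Bcl6* (-0.42 ± 0.24), *Maf* (-0.72 ± 0.59) and *Klf4* (-0.37 ± 0.37) had higher means with MI-2-2, and *Spi1* (0.14 ± 0.18) and *Ikzf1* (0.31 ± 0.22) with EPZ5676. A missed threshold here does not show that the levels were alike.

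*Klf4* was the 1 factor called between iBET and MM-401, where 11.4% of all genes were called. It was 3.04-fold lower with iBET (-1.60 ± 0.41, edgeR adjusted p = 0.0435), and the call was lost without any 1 of the 4 libraries (edgeR adjusted p from 0.0752 to 0.243). *Id2* was 1.85-fold lower (-0.89 ± 0.30, edgeR adjusted p = 0.0998) and *Gfi1* 1.34-fold lower (-0.42 ± 0.18, edgeR adjusted p = 0.170), without a call. *Id2* passed in DESeq2 (adjusted p = 0.0255) and in an edgeR fit of these groups alone (adjusted p = 0.0216).

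The balance between the factors shifted with EPZ5676 and MI-2-2. Per kilobase of exon, mean levels in DMSO ran from *Gfi1* (131 TMM CPM per kilobase) and *Spi1* (82.6) through *Ikzf1* (38.1), *Id2* (4.07) and *Klf4* (0.836) to *Bcl6* (0.0829), *Maf* (0.0393) and *Gfi1b* (0.0106). In that order the 2 libraries of each gene stayed clear of those of its neighbours from *Gfi1* to *Maf*, which covers the spread between libraries only. The lengths are those of all annotated exons. Which exons were expressed or counted was not tested, so the order between genes depends on these lengths. With EPZ5676 the order was *Spi1* (169), *Gfi1* (99.5), *Id2* (94.7), *Ikzf1* (70.7), *Klf4* (5.39), *Bcl6* (2.35) and *Maf* (1.62). *Spi1* had passed *Gfi1*, and *Id2* had passed *Ikzf1*. With MI-2-2, *Spi1* (153) was again above *Gfi1* (106), and *Id2* (60.2, libraries at 54.7 and 65.8) and *Ikzf1* (56.8, at 50.6 and 63.0) overlapped, as did *Bcl6* (3.15) and *Maf* (2.67). With MM-401 and iBET *Gfi1* stayed first, followed by *Spi1* and then *Ikzf1*.

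**Figure D3:**
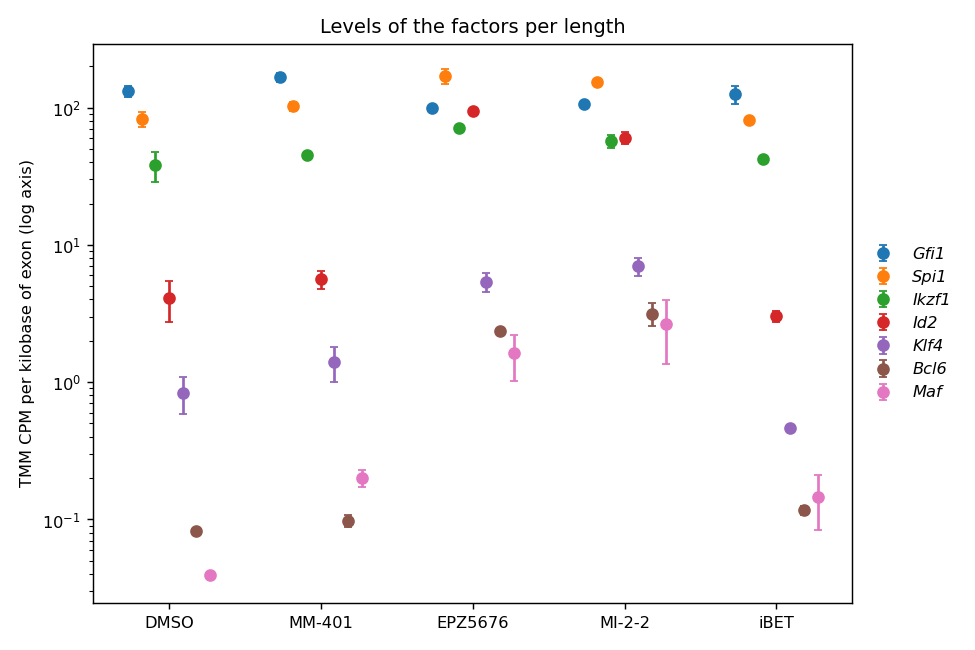
Level per kilobase of exon (log axis) of 7 factors in each condition, as the mean of 2 libraries with a bar from the lower to the higher. *Gfi1* is first in DMSO, MM-401 and iBET, and *Spi1* is first with EPZ5676 and MI-2-2.

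The same shift can be read within each library, where library size cancels. There were 1.96 and 1.82 *Gfi1* reads for each *Spi1* read in DMSO, 1.92 in both MM-401 libraries and 2.18 and 1.46 with iBET, but 0.796 and 0.620 with EPZ5676 and 0.917 and 0.720 with MI-2-2. For each *Id2* read there were 28.9 and 68.4 *Gfi1* reads in DMSO, 1.44 and 1.31 with EPZ5676 and 2.68 and 1.96 with MI-2-2. For each *Klf4* read there were 213 and 138 in DMSO, against 16.6 and 23.0 with EPZ5676 and 19.8 and 12.9 with MI-2-2. The read ratios carry the same exon lengths in every library, so they compare conditions and not genes.

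Across the 10 libraries, *Id2* and *Bcl6* followed each other most closely of the factors (Pearson r of log2 levels 0.97), with *Maf* and *Bcl6* next (0.96). *Gfi1* had a negative r with each of the other 6 (-0.74 to -0.49). With MM-401, though, its log2 fold change was positive like theirs, without a call. These correlations are descriptions over libraries that share 5 conditions. Among 9938 other genes with a mean of at least 5 TMM CPM, the most alike in pattern to *Id2* were *Asprv1* (r = 0.997) and *Klk1b11* (0.996), and to *Bcl6* *Prr33* (0.996) and *Tmcc1* (0.995). Those for *Maf* were *Slc6a6* (0.990) and *Ccl2* (0.988), for *Klf4* *Micall1* (0.985) and *1700017B05Rik* (0.983), for *Spi1* *Itprip* (0.988) and *Arid3a* (0.985), for *Ikzf1* *Rffl* (0.987) and *Slc39a13* (0.978), and for *Gfi1* *Htra2* (0.946) and *Dyrk3* (0.944). Without the second DMSO library each of these 14 values stayed within 0.01.

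Other transcription factors of the same network were examined as a list of 32, of which 28 passed the filter. With EPZ5676 12 were higher and 6 lower, with MI-2-2 13 higher and 5 lower, with iBET 4 higher and 1 lower, and with MM-401 0 either way. Of all genes tested, 18.7% were higher and 19.4% lower with EPZ5676, 20.2% and 21.2% with MI-2-2, and 6.38% and 7.54% with iBET. With MM-401 0% of all genes were called, so 0 of a list there does not set it apart. These shares stand beside the counts of each list below as well. The median log2 fold change of the 28 factors was 1.02, 1.00 and 0.30 for EPZ5676, MI-2-2 and iBET in turn. The smallest adjusted p-values belonged to progenitor factors that fell. *Meis1*, the HOX cofactor of MLL-rearranged leukemia, changed by -5.67 ± 0.59 with EPZ5676 and -6.12 ± 0.60 with MI-2-2 (edgeR adjusted p = 0.000705 and 0.00061). *Myb*, which keeps progenitors dividing, changed by -1.59 ± 0.17 and -1.81 ± 0.17 (edgeR adjusted p = 0.000787 and 0.00061).

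Other factors rose. *Cebpd*, a leucine zipper factor of myeloid cells, rose by 1.27 ± 0.14 on the log2 scale with EPZ5676 and 1.07 ± 0.14 with MI-2-2 (edgeR adjusted p = 0.000864 and 0.00137). *Klf6* rose by 1.5 ± 0.22 and 1.69 ± 0.22 (edgeR adjusted p = 0.00208 and 0.00128), and *Rara*, a retinoic acid receptor, by 1.88 ± 0.28 and 2.14 ± 0.28 (edgeR adjusted p = 0.00217 and 0.0013). *Cebpe*, a driver of late granulocyte genes, rose by 1.85 ± 0.25 with EPZ5676 and 1.52 ± 0.25 with MI-2-2 (edgeR adjusted p = 0.00154 and 0.00277). With iBET it fell instead, from 107 and 108 TMM CPM in DMSO to 31.3 and 19.5 (-2.08 ± 0.25, edgeR adjusted p = 0.00437). *Irf8*, a monocyte and dendritic cell factor, rose with iBET from 21.1 and 61.3 to 132 and 241 (2.18 ± 0.48, edgeR adjusted p = 0.0247), and *Rara* rose by 1.85 ± 0.28 (edgeR adjusted p = 0.00792). Without the first DMSO library, which leaves a lone control, the counts of this list with iBET and MM-401 rose, as did those over all genes.

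**Figure D4:**
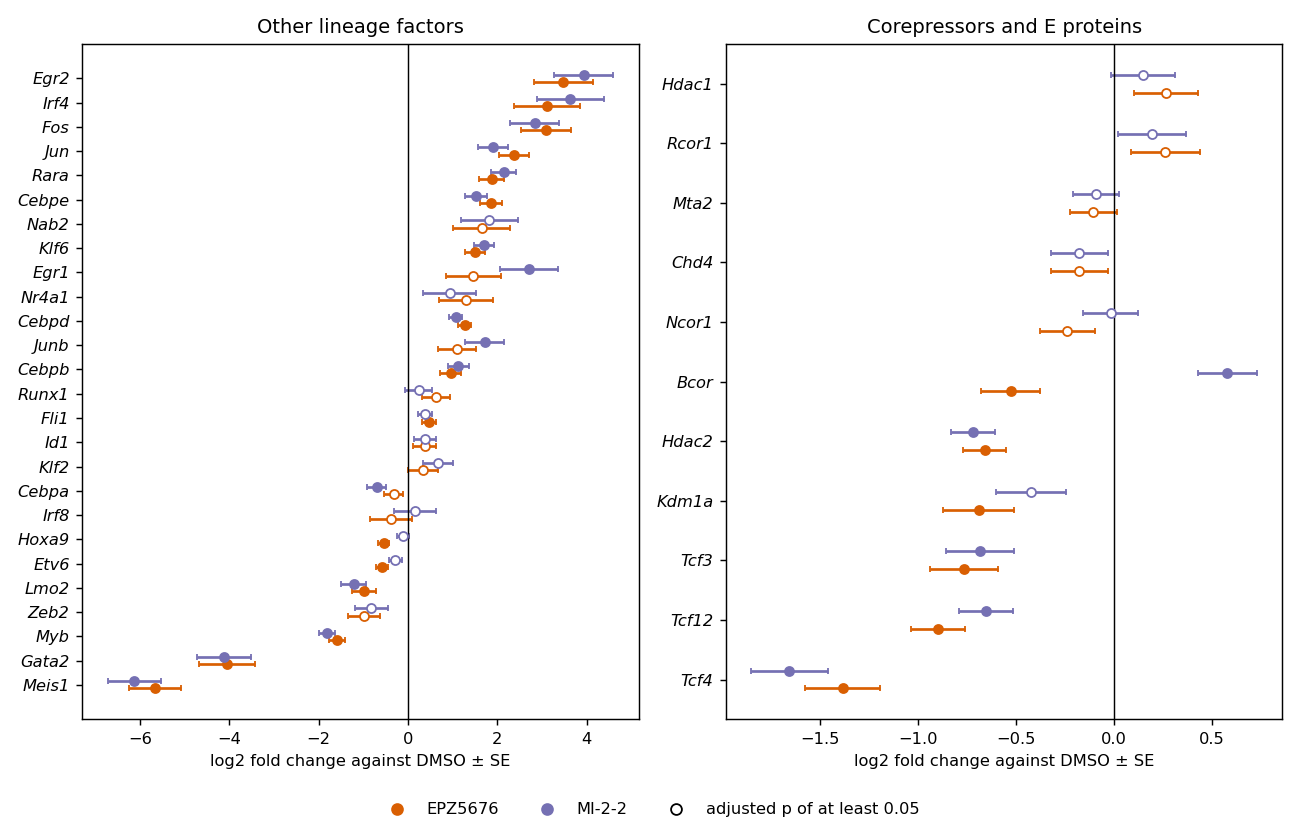
Log2 fold change against DMSO with its SE for other lineage factors (left, 26 of the 28 tested) and for corepressors and E proteins (right, 11 of the 12), with EPZ5676 in orange and MI-2-2 in purple. Open points were not called, factors with 1 read or fewer in DMSO are left out on the left, 1 gene is not reported on the right, and *Meis1* and *Gata2* lie farthest to the left.

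The genes of proteins that GFI1, BCL6 and ID2 bind were examined next. Of 12 corepressors and E proteins, all tested, 0 were higher and 6 lower with EPZ5676, 2 higher and 4 lower with MI-2-2, and 1 higher and 1 lower with iBET. The shares of all genes were 18.7% and 19.4% with EPZ5676, 20.2% and 21.2% with MI-2-2, and 6.38% and 7.54% with iBET. All 3 E protein genes, whose products ID2 sequesters, were lower with EPZ5676 and with MI-2-2. *Tcf4* changed by -1.38 ± 0.19 with EPZ5676 and -1.66 ± 0.19 with MI-2-2 (edgeR adjusted p = 0.00175 and 0.000935), *Tcf12* by -0.90 ± 0.14 and -0.65 ± 0.14 (edgeR adjusted p = 0.00243 and 0.00749), and *Tcf3* by -0.77 ± 0.18 and -0.68 ± 0.17. The histone deacetylase gene *Hdac2* changed by -0.66 ± 0.11 and -0.72 ± 0.11 (edgeR adjusted p = 0.00335 and 0.00228). *Bcor*, which encodes a corepressor of BCL6, was called lower with EPZ5676 (-0.53 ± 0.15), higher with MI-2-2 (0.58 ± 0.15) and lower with iBET (-0.90 ± 0.15). Without the first DMSO library, more of the 12 were called higher with MM-401, EPZ5676 and iBET, and more lower with iBET. More of all genes were called there too.

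Markers of mature cells rose in the same libraries as *Id2*, *Bcl6*, *Klf4* and *Maf*. In bulk samples, a change in the number of cells of a type and a change in RNA per cell cannot be told apart. All 12 late granulocyte genes were higher with EPZ5676 and with MI-2-2, and their summed level was 709.8 and 3748 TMM CPM in DMSO, 54052 to 74490 with EPZ5676, 49211 to 50583 with MI-2-2, 4875 to 6499 with MM-401 and 525 to 1257 with iBET. *Camp*, an antimicrobial peptide of secondary granules, rose by 6.02 ± 0.28 with EPZ5676 and 4.89 ± 0.27 with MI-2-2 (edgeR adjusted p = 0.000173 and 0.000179), *Ltf* (lactoferrin) by 7.87 ± 0.62 and 8.06 ± 0.62, and *Mmp9* by 5.55 ± 0.51 and 6.83 ± 0.53. With iBET 5 of the 12 were lower, led by *Camp* (-3.92 ± 0.27, edgeR adjusted p = 0.000818). More were lower without the second DMSO library, where more of all genes were called too. With MM-401 0 were called in the fit with both DMSO libraries, as were 0% of all genes. The median log2 fold change of the 12 with MM-401 was 1.35. The 2 controls lay far apart here, with *S100a8* at 1465 TMM CPM in the first and 250 in the second. The part of the late granulocyte genes in the changes of the 8 factors was not tested.

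Most monocyte and macrophage genes moved the same way. Of 22, 17 were higher with EPZ5676, 18 with MI-2-2 and 0 lower with either. For MI-2-2 the 0 did not hold without the first DMSO library. Their summed level was 747 to 985 TMM CPM in DMSO, 4858 to 6920.2 with EPZ5676, 3939 to 6135 with MI-2-2, 1265 to 1406 with MM-401 and 1288 to 1546 with iBET. With EPZ5676, MI-2-2 and iBET most of the sum was *Lyz2*. This gene alone was at 282 and 261 TMM CPM in DMSO, 3561 and 5388 with EPZ5676, 2625 and 3827 with MI-2-2, and 1022 and 1147 with iBET. *Lyz2* (lysozyme) rose by 4.04 ± 0.28 and 3.57 ± 0.27 (edgeR adjusted p = 0.000319 and 0.000301), and *Mrc1*, the mannose receptor, by 6.29 ± 0.69 and 6.85 ± 0.70. Not called with either were *F13a1* (-0.41 and -0.36), *Cx3cr1* (-1.13 and -2.03), *Fcgr1* (1.15 and 0.42) and *Ly86* (1.02 and 0.74). *Ccr2* was not called with EPZ5676 (0.082). With iBET, 2 were higher and 2 lower, with *Lyz2* at 2.00 ± 0.25 (edgeR adjusted p = 0.005) and *F13a1* at -2.55 ± 0.45 (edgeR adjusted p = 0.0121). Without the first DMSO library more of the 22 were called with iBET, and some with MM-401, where more of all genes were called too. With both DMSO libraries in the fit, 0 were called with MM-401, as were 0% of all genes. The median log2 fold change of the 22 with MM-401 was 0.72. The part of these genes was not tested either.

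Primary granule genes, made at the promyelocyte stage, went the other way. Of 5, 4 were lower with EPZ5676 and 4 with MI-2-2, 2 with iBET and 0 with MM-401, and their summed level was 9911 to 13075 TMM CPM in DMSO, 3003 to 3464 with EPZ5676, 2154 to 2791 with MI-2-2, 6159 to 6898 with iBET and 11138 to 11657 with MM-401. *Prtn3* changed by -1.42 ± 0.23 with EPZ5676 and -2.20 ± 0.23 with MI-2-2 (edgeR adjusted p = 0.00281 and 0.000725), and *Elane* (neutrophil elastase) by -1.63 ± 0.34 and -2.29 ± 0.35. *Mpo*, the myeloperoxidase gene, was at 386 and 4816 TMM CPM in DMSO, far apart in the 2 control libraries. Without the first DMSO library, calls of higher levels arose among the 5 with MM-401 and iBET, where more of all genes were called too.

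**Figure D5:**
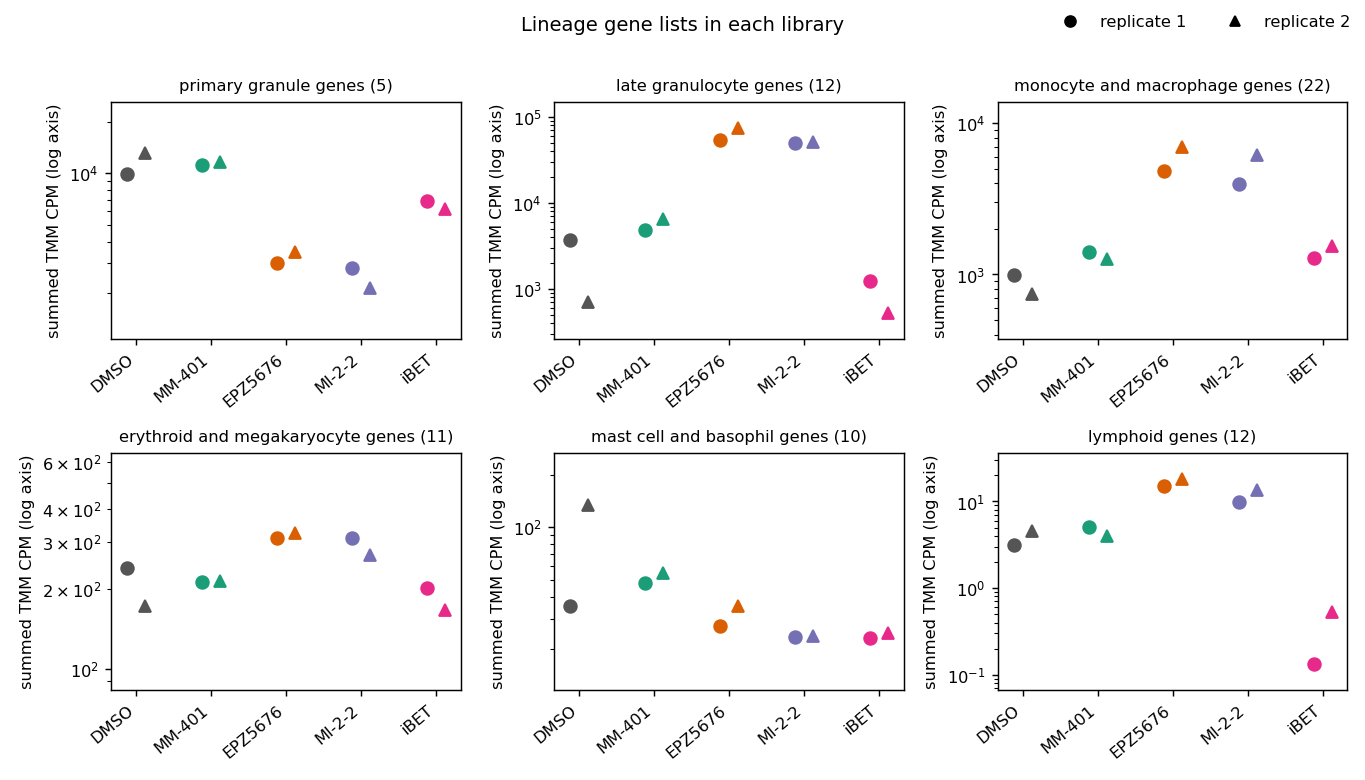
Summed TMM CPM (log axis) of 6 lineage gene lists in each library, with the number of genes in each title. Late granulocyte and monocyte genes are highest with EPZ5676 and MI-2-2, primary granule genes are lowest there, and the lymphoid list reaches 18.2 TMM CPM at most.

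Many markers of other blood lineages had few reads or none. In the erythroid and megakaryocyte list, 6 of 11 genes passed the filter, the globin genes *Hba-a1* and *Hbb-b1* had no read in any library, and the summed level of 167 to 326 TMM CPM was mostly *Nfe2*, which is also a myeloid factor. Called were 2 higher with EPZ5676 (*Pf4*, 2.83 ± 0.56, and *Nfe2*, 0.63 ± 0.17), 2 higher with MI-2-2 and 1 lower with iBET. For MI-2-2 neither call held without the second DMSO library, and more genes were called without the first. Of 10 mast cell and basophil genes, 4 passed, of which EPZ5676 lowered 2, MI-2-2 lowered 3 and iBET lowered 1. Their summed level was 35.5 and 133 TMM CPM in the DMSO libraries and 23.4 to 54.4 with the inhibitors. *Hdc*, the histidine decarboxylase gene, made up 14.1 and 118 of it in DMSO, far apart in the 2 controls, and was called lower with MI-2-2 (12.9 and 13.8 TMM CPM, edgeR adjusted p = 0.0460) and with iBET (4.77 and 6.43, edgeR adjusted p = 0.0302). *Fcer1a*, *Prss34*, *Tpsb2* and *Cma1* had no read, and *Mcpt8* was lower with EPZ5676 (-1.35 ± 0.20, edgeR adjusted p = 0.0021). *Gata2* was lower with both (-4.05 ± 0.62 and -4.12 ± 0.61).

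Of 12 lymphoid genes 3 passed, and *Ebf1*, *Pax5*, *Rag1*, *Cd3e*, *Cd8a* and *Ncr1* had no read in any library. *Il7r* rose with EPZ5676 (3.79 ± 0.74, edgeR adjusted p = 0.00632) and MI-2-2 (3.51 ± 0.73), *Cd79b* rose with EPZ5676 and fell with iBET, and the sum was 0.133 to 18.2 TMM CPM. Of 4 eosinophil genes 2 passed (sum 0.880 to 31.2 TMM CPM), with *Siglec5* higher with EPZ5676 and MI-2-2 and lower with iBET. Of 8 dendritic cell genes 2 passed (sum 0.421 to 2.01 TMM CPM), and *Ccr7* was lower with all 3 of these inhibitors. With MM-401 0 genes of these 5 lists were called, as were 0% of all genes. Without the first DMSO library, calls in both directions arose over the erythroid, mast cell and eosinophil lists. With the other inhibitors, leaving out a DMSO library moved the counts of these 5 lists by 1 at most, except for the erythroid list with EPZ5676 and MI-2-2. The part of these genes in the changes of the 8 factors was not tested.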

How the data were processed

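RNA sequencing reads were counted per gene by the authors, and the deposited table holds raw read counts, whole numbers without normalization, for 24015 gene symbols in 10 libraries. The labels' processing notes name TopHat2, Subread, DESeq and the build mm9, without saying which step used which. Groups were taken from the labels, and 2 libraries per condition were kept as replicates (no 2 libraries agreed within sampling noise). Counts were fitted in R 4.3.3 with edgeR 4.0.16 (filterByExpr with a minimum of 10 reads, TMM scaling, glmQLFit and glmQLFTest) in 1 fit with a coefficient per condition, and p-values were adjusted across 12971 genes with the Benjamini-Hochberg method. The SE is the log2 fold change divided by the square root of F. The fit was tested on simulated data. Alternatives were DESeq2 1.42.0, DESeq2 size factors, total-count scaling, no filter, a mean of at least 1 CPM, only the groups compared, a replicate block and each library left out.

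The labels give conditions the same replicate numbers 1 and 2. Same-numbered libraries deviated together in each of the 10 pairs of conditions (r from 0.311 to 0.716), so the blocked values are given where they change a call. Named genes are the 8 factors, up to 3 genes of each list with the smallest adjusted p under 0.05 against DMSO together with the defining genes of other cell types, and the 2 genes most alike to each factor. Of those that the rule selects, some are given only in counts or are not reported here. The factors and lists were chosen with earlier results of these data known. *Chil3* was matched through a synonym. Exon lengths came from GENCODE M21 and promoters from RefSeq, both on GRCm38, and no coordinate of mm9 was used.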

Additional observations from a re-analysis of the deposited data

Results flagged for a closer look

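*Gfi1b*, which did not pass the filter on low counts and was left out of the fit behind the fold changes, had 15 reads over the 2 MI-2-2 libraries and 10 reads over the 2 iBET libraries, against 1 read over the 2 DMSO libraries. Of these, 5 and 10 came from the MI-2-2 libraries and 2 and 8 from the iBET libraries. The cause was not tested.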

How the results depend on the processing

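For the 7 factors tested in 8 comparisons (56 values), DESeq2 size factors, a mean of at least 1 CPM and no filter changed no call and no direction. DESeq2 added 3 calls, the replicate block 2 (*Ikzf1* with MI-2-2, and with EPZ5676 and MI-2-2 against MM-401) and no other, total-count scaling added 1 and lost 1, and fits of the compared groups alone added 2 and lost 3. Of 252 values with a library left out, 223 kept direction and call, 14 lost a call, 4 gained one and 11 changed sign, none of which was called. Over the libraries left out, log2 fold changes that changed sign ran from -0.17 to 0.010 for *Gfi1* between EPZ5676 and MI-2-2, and with iBET against DMSO from -0.31 to 0.13 for *Gfi1*, -0.85 to 0.14 for *Id2*, -0.17 to 0.55 for *Ikzf1* and -0.19 to 0.18 for *Spi1*, where *Gfi1* changed sign without the second DMSO library (0.056) and the second iBET library, and *Spi1* without the second DMSO library and the first iBET library (0.053). They ran from -0.084 to 0.62 for *Ikzf1* with MM-401, from -1.39 to 0.26 for *Maf* and -0.051 to 0.30 for *Spi1* between EPZ5676 and MI-2-2, and from -1.27 to 0.050 for *Maf* between iBET and MM-401. Factors called with a library left out numbered 3 to 6 for EPZ5676 and MI-2-2 against MM-401 (6 with all), 0 to 2 for iBET (0), 0 to 1 for MM-401 (0) and 0 for iBET against MM-401 (1; 2 in DESeq2 and in the compared groups alone). Over all genes, counts moved more. With EPZ5676 4942 were called, 1078 in the compared groups alone and 2736 to 6682 with a library left out. With MI-2-2 these were 5373, 956 and 2884 to 7086. With iBET they were 1806, 0 in the compared groups alone (2611 at an unadjusted edgeR p under 0.05) and 193 to 3585, with 2829 in DESeq2 and 3088 with the block. With MM-401 0 were called (1450 at an unadjusted edgeR p under 0.05), 297 in DESeq2 and 0 to 1280 with a library left out. Between EPZ5676 and MI-2-2 they were 2, with 156 in DESeq2, 7 without the filter, 4 with the block, 0 with total-count scaling (925 at an unadjusted edgeR p under 0.05) and 0 with any library left out (570 to 963). Between iBET and MM-401 they were 1484, with 2294 in DESeq2, 4134 in the compared groups alone, 2470 with the block and 208 to 292 with a library left out. For EPZ5676 and MI-2-2 together, they were 5473 against MM-401 (2380 to 4605) and 5927 against iBET (2803 to 5220). A lone library left in a condition is assumed to vary like the others, and the cause of these moves was not tested. Low counts limit *Maf* in DMSO and *Gfi1b* throughout.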
